A study of Mus musculus with 2 samples.

Results

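The genes described here are 9 members of cytokine signalling: the transcription factors Stat2, Stat3, Stat4, Stat5a, Stat5b and Stat6, and the inhibitors Socs1, Socs3 and Cish. They were chosen by name from 23296 named genes, with earlier results of these data known. All 9 passed the minimum of a mean of 1 RPKM over both libraries, as did 11095 genes in all (the measured genes below). The data are RNA sequencing of whole thymus from wild-type (WT) mice and from miR-146a transgenic (Tg) mice, both of the Balb/c strain and 5 to 6 weeks old. The Tg mice express the microRNA systemically, and the promoter that drives it is not given in the sources used here. Each library came from 1 pool of thymuses of a male and a female, so there was 1 library per genotype, no measure of the spread between animals and no test between genotypes. The WT library held 14522669 fragments and the Tg library 15396696, and what follows compares those libraries, not the genotypes at large. A fragment is 2 of the recovered reads, as 99.8% of the read numbers at an annotated transcript length were even in each library.

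Cytokine receptors without enzyme activity of their own signal through Janus kinases (JAKs), which phosphorylate STAT proteins. The phosphorylated STATs pair, enter the nucleus and switch on genes, among them those of the SOCS family, whose proteins bind receptors or JAKs and shut the signal down. In the thymus, IL-7 acts through STAT5 to keep immature and newly selected thymocytes alive, and SOCS1 restrains cytokine signals while thymocytes carry both CD4 and CD8. RPKM divides the reads of a transcript by its length in kilobases and by the reads of the library, so levels of different genes can be compared per length. Every interval given is an exact 95% one computed from fragments and holds only the error of counting. A ratio is Tg over WT with no pseudocount, and each gene is read from whichever of its transcripts had the highest mean RPKM.

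Stat4 and Socs3, 2 of the 9 genes, had Tg levels over 1.5-fold below WT, and none was over 1.5-fold higher. Over all measured genes 11.0% were lower by that fold and 7.74% were higher, or 7.93% and 11.8% when both libraries were rescaled to 1 sum of RPKM. Stat2, Stat3, Stat5a, Stat5b and Socs1 had ratios from 1.13 to 1.28, Stat6 was at 0.984 and Cish at 0.742. At a fold of 2 none of the 9 genes was lower or higher, beside 3.84% lower and 2.79% higher of all measured genes. At the looser ratio of 5 to 4, Cish joined Stat4 and Socs3 as lower and Stat2 was higher, beside 21.2% and 20.3% of all measured genes. The median log2(Tg/WT) of the 9 genes was 0.18, against 0.03 over all measured genes.

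**Figure D1:**
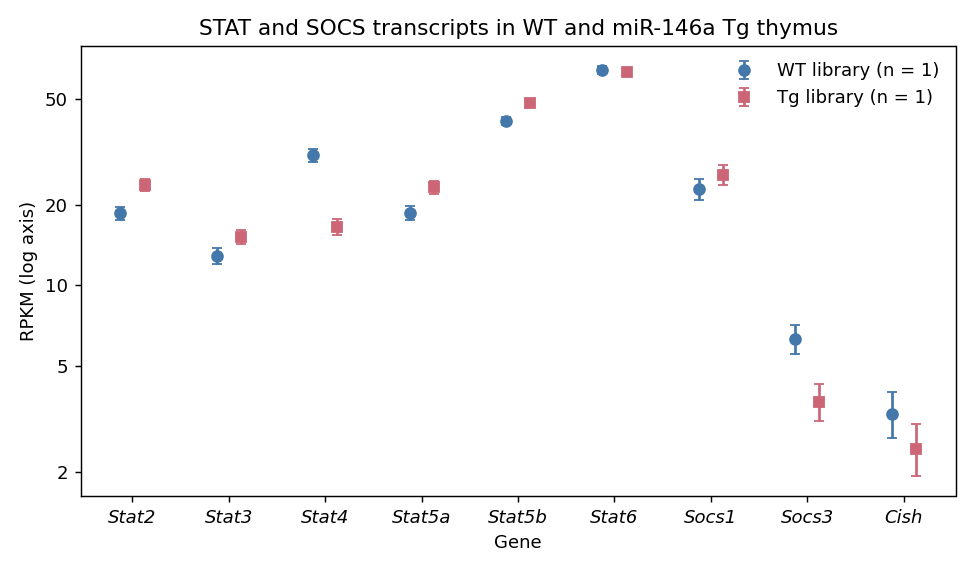
RPKM (log axis) of the 9 genes in the WT library (circles) and the Tg library (squares), with 1 library each and exact 95% counting intervals as bars. Stat4 and Socs3 show the widest gaps between the libraries, and the intervals of Stat6, Socs1 and Cish overlap between the libraries.

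The order of levels was led by Stat6 and Stat5b in both libraries. In the WT library it ran from Stat6 at 64.0 RPKM through Stat5b, Stat4, Socs1, Stat5a, Stat2, Stat3 and Socs3 to Cish at 3.28 RPKM. The intervals of neighbours overlapped only for Stat5a and Stat2. In the Tg library Stat4 moved from rank 3 to rank 6, below Socs1, Stat2 and Stat5a, and its interval overlapped that of Stat3, which came next. The intervals of Socs1 and Stat2, and of Stat2 and Stat5a, overlapped there too. Summed over the 6 STAT genes the level was nearly the same, 186 RPKM in WT thymus and 190.2 RPKM in Tg thymus. Its make-up differed, since Stat4 gave 16.5% of the WT sum and 8.69% of the Tg sum, whereas Stat2, Stat3, Stat5a and Stat5b each gave a larger share in the Tg library.

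**Figure D2:**
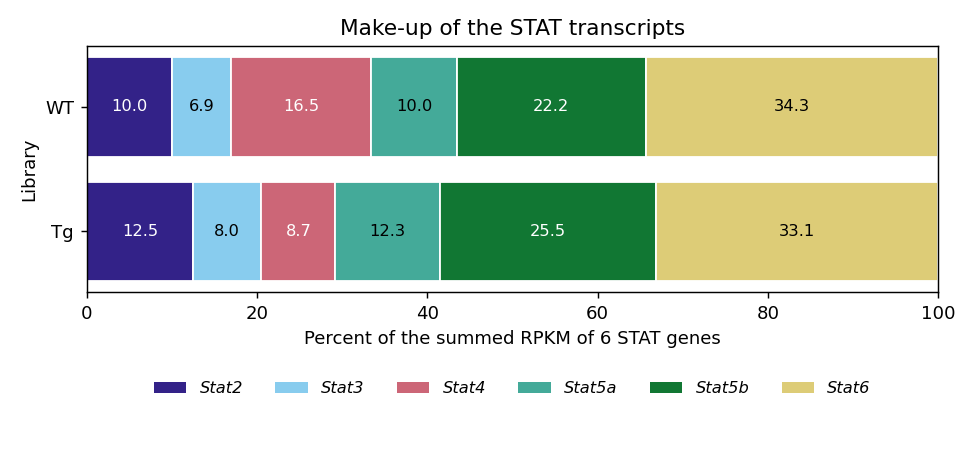
Percent of the summed RPKM of 6 STAT genes given by each, in the WT library (upper bar) and the Tg library (lower bar). The Stat4 segment shrinks from 16.5% to 8.69%, and Stat6 stays the largest at 34.3% and 33.1%.

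Stat4 carries the signal of IL-12 and of type I interferon and is known for driving T cells toward the T helper 1 type. Its only listed transcript, NM_011487 on chromosome 1 (51987106 to 52107189, GRCm38), stood at 30.7 RPKM in WT thymus and 16.5 RPKM in Tg thymus. These values rest on 1330 and 759 fragments. The ratio was 0.538 (95% interval 0.492 to 0.589), a 1.86-fold lower level in the Tg library and a log2 of -0.89. Only 4.96% of measured genes had a ratio as low or lower. By level, Stat4 went from percentile 77.9 of the measured genes in the WT library to percentile 60.6 in the Tg library. Stat3, which stood at 0.420 of the Stat4 level in the WT library, came to 0.920 of it in the Tg library. The IL-12 receptor chains did not move with it by 1.5-fold: Il12rb1 had 13.9 and 11.1 RPKM, and Il12rb2 had 1.87 and 2.49 RPKM on 80 and 113 fragments. Tbx21, which encodes T-bet, stood at 0.836 and 0.789 RPKM and was below the minimum for a measured gene.

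Stat5b, Stat5a and Stat3 lie next to each other on chromosome 11. Each had a ratio above 1, as did most measured genes, whose median log2(Tg/WT) was 0.03. Between Stat5b and Stat5a lie 346 bases, and between Stat5a and Stat3 lie 1.64 kb. Stat6 and Stat2 share chromosome 10 but are 609.5 kb apart, with 24 protein-coding genes between them.

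Whole thymus holds thymocytes of all stages and other cells, and in such samples fewer cells of a type and less RNA per cell cannot be told apart. The labelled tissue had its markers: all 9 genes found from a list of double-positive thymocytes were measured, with a summed level of 2538 RPKM in WT thymus and 2944 RPKM in Tg thymus. Of the 9, 2 were over 1.5-fold higher. Of 12 markers of mature single-positive thymocytes, 10 were over 1.5-fold lower, and the summed level of the 12 was 1493 and 705 RPKM. The marker lists were written with earlier results of these data known. This one holds Il7r and H2-K1, which the paper reports as downregulated, so its count is not independent of those results. Of 8 measured genes of innate and NK cells, 6 were lower and 1 was higher, with summed levels of 186 and 122 RPKM for the 10 listed. Among the lower ones Ncr1, Zbtb16 and Eomes passed the minimum only through the WT library. The higher one, Gzmb, had an interval of the ratio that held 1 (0.967 to 2.96). All 6 measured neutrophil genes were lower, from a summed 549 to 139 RPKM over 8 listed genes. None of the markers of these lists was at 0 in either library. Both measured erythroid genes were lower too. Of 6 listed genes of double-negative thymocytes 5 were measured, and 1 was lower. Of 10 listed genes of thymic epithelium 5 were measured, and 1 was lower. Of 4 measured B cell genes Ms4a1 was lower (list sums of 29.2 and 21.4 RPKM), and of 6 measured macrophage and dendritic cell genes Lyz2 was (97.9 and 68.5 RPKM). All 10 proliferation genes were over 1.5-fold higher, with summed levels of 279.5 and 841 RPKM. Of all measured genes, 11.0% were over 1.5-fold lower and 7.74% higher. The part of these cells in the values of Stat4 and Socs3 was not tested.

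Stat5a and Stat5b encode closely related proteins that carry the signals of IL-7 and IL-2, and only uniquely mapped reads were counted, so reads from stretches identical in both may be missing from either value. Stat5b (NM_001113563, chromosome 11, 100780731 to 100859004) stood at 41.4 RPKM in WT thymus and 48.4 RPKM in Tg thymus. Its ratio was 1.17 (1.11 to 1.23) on 2960 and 3670 fragments. Stat5a (NM_001164062, chromosome 11, 100859351 to 100885169) had 18.7 and 23.3 RPKM, giving 1.247 as the ratio (1.15 to 1.36) from 979 and 1294 fragments. Both intervals lay above 1 and below 1.5, and they overlapped each other. Stat5b exceeded Stat5a by 2.21 times in WT thymus and 2.08 times in Tg thymus. The second listed transcript of each gene went the same way. That of Stat5b (NM_011489) had a ratio of 1.21, at 37.0 and 44.8 RPKM, and that of Stat5a (NM_011488) had 1.16, at 18.2 and 21.1 RPKM. Transcripts of a gene overlap and share fragments, so these are not independent measurements.

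Stat3, which serves IL-6 and related cytokines, lies on chromosome 11 (100886806 to 100939594) and is listed with 3 transcripts. Its value, from NM_213660, was 12.9 RPKM in WT thymus and 15.2 RPKM in Tg thymus. The ratio was 1.18 (1.08 to 1.29) on 840 and 1050 fragments. NM_011486 gave 12.8 and 15.1 RPKM, again a ratio of 1.18, whereas NM_213659 gave 13.3 and 14.1 RPKM and a ratio of 1.06 with an interval that held 1 (0.969 to 1.17). The recovered lengths of these transcripts are close, 4484, 4437 and 4487 nt. For Stat3, then, the distance of the ratio from 1 depended on the transcript, and all 3 ratios were above 1.

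Stat6 answers to IL-4 and IL-13 and drives the T helper 2 type. It was the most abundant of the 9 genes, at 64.0 RPKM in WT thymus and 62.9 RPKM in Tg thymus (NM_009284, chromosome 10, 127642955 to 127660987). Its ratio of 0.984 (0.939 to 1.03), on 3536 and 3687 fragments, was the closest to 1 of the 9, and its level was near percentile 90 of the measured genes in both libraries (89.9 and 90.2). Stat6 exceeded Stat4 by 2.08 times in WT thymus and 3.81 times in Tg thymus. The shared receptor chain for these cytokines, Il4ra, had 65.4 and 44.6 RPKM, a ratio of 0.682 (0.653 to 0.713) that stayed within 1.5-fold. Gata3, which STAT6 is known to induce and which thymocytes also need for the CD4 lineage, had 29.5 and 33.1 RPKM. Il4 itself rested on 20 WT fragments and 2 Tg fragments of a transcript listed as non-coding, a ratio of 0.0943 with a wide interval (0.0107 to 0.388). The coding transcript of Il4 had 16 WT and 3 Tg fragments, a ratio of 0.177 (0.033 to 0.618).

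Stat2 works with IRF9 in the complex that answers type I interferon. Its ratio was 1.28 (1.18 to 1.38), which overlapped that of Stat5a, and it was 1.18 beside 1.21 for Stat5a with the trend over transcript length subtracted. Its transcript NM_019963 (chromosome 10, 128270498 to 128292853) stood at 18.6 RPKM in WT thymus and 23.8 RPKM in Tg thymus, on 1190 and 1611 fragments. Its partner Irf9 went the other way. Irf9 had 8.52 and 5.07 RPKM, a ratio of 0.595 (0.492 to 0.719). Its other listed transcripts had ratios of 0.641 and 0.759, the latter within 1.5-fold. The receptor chains differed less, with Ifnar1 at 23.5 and 22.3 RPKM and Ifnar2 at 10.2 and 13.6 RPKM. Of 7 measured genes in a list of interferon partners and targets, 6 were over 1.5-fold lower, beside 11.0% of all measured genes. Irf1 (23.1 and 19.0 RPKM) was within 1.5-fold, and the list's median log2(Tg/WT) was -1.04. The other 3 of the 10 listed genes were below the minimum. Of these Mx1 and Rsad2 had ratios of 0.388 and 0.597, and Oas1a went the other way, with 0 fragments in WT thymus and 22 in Tg thymus. Ifit1 had a ratio of 0.320 (0.260 to 0.392). Ifit3 stood at 4.07 and 1.17 RPKM, Irf7 at 7.66 and 2.87 RPKM, and Isg15 at 21.9 and 10.7 RPKM. Usp18, which also inhibits the interferon receptor, had 9.99 and 4.99 RPKM.

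**Figure D3:**
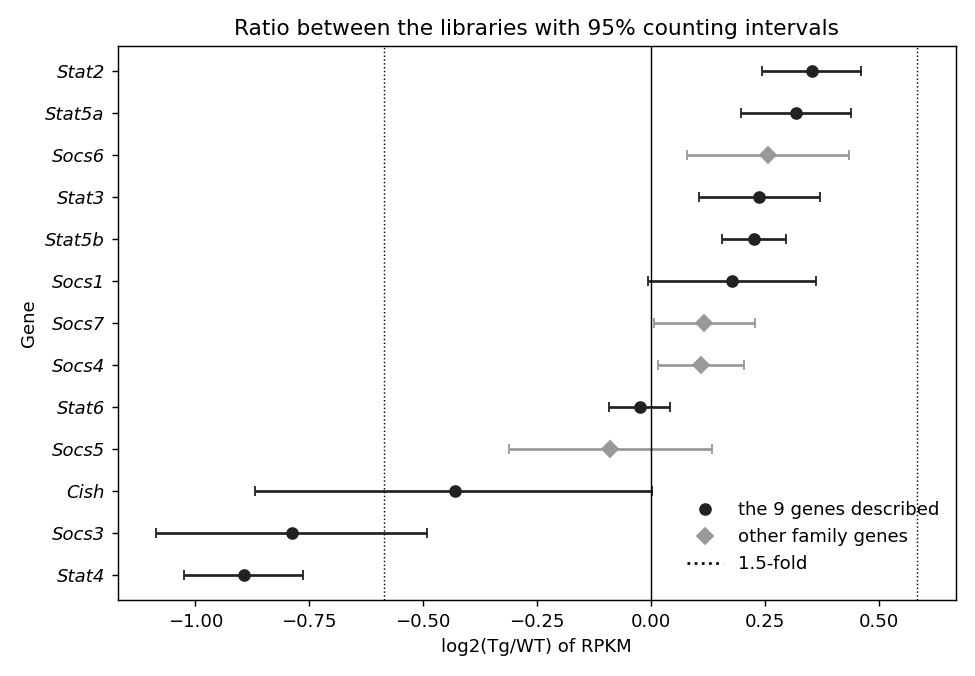
log2(Tg/WT) of RPKM for the 9 genes (circles) and 4 other SOCS genes (diamonds), with exact 95% counting intervals and dotted lines at 1.5-fold. Stat4 and Socs3 lie beyond the lower line, Stat2 and Stat5a have overlapping intervals at 0.35 and 0.32, and the intervals of Stat6, Socs1, Socs5 and Cish hold 0.

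MicroRNAs repress messages through pairing of their seed with the 3′ UTR, so the matches to miR-146a in these genes are shown. The mature miR-146a of the mouse (RefSeq, GRCm38.p6, chr11:43374435-43374456, minus strand) is printed with its seed, bases 2 to 8, in capitals. Matches searched were the complement of bases 2 to 8, of bases 2 to 7 followed by A, or both at once (8 bases). Among the 9 genes, only Stat2 held a 7- or 8-base match in the 3′ UTR of its matched GENCODE M21 transcripts, 1 match of 7 bases to bases 2 to 8 of the microRNA. It lies 474 bases after the stop codon in a 3′ UTR of 1476 bases, in exon 24 of 24. The site is printed as the message strand, with the match in capitals (chr10:128291838-128291862, plus strand, GRCm38).
mmu-miR-146a-5p: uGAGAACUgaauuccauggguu
Stat2 3′ UTR: gggcccttcAGTTCTCtcttccagt

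Stat4 and Socs3 had no match in 3′ UTRs of 248 and 1474 bases. Of 10225 measured genes with an annotated 3′ UTR, 18.0% held a 7- or 8-base match and 3.86% an 8-base match. Among the other family genes Socs5 and Socs7 each held 1 match of 7 bases, and they stood at ratios of 0.940 and 1.08. The letters of a match do not show that the message is bound.

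Socs1 is the best known restraint on cytokine signals in the thymus, and it was the most abundant of the inhibitors. Its transcript NM_001271603 (chromosome 16, 10783808 to 10785536) stood at 22.9 RPKM in WT thymus and 25.9 RPKM in Tg thymus. The ratio was 1.13 with an interval that held 1 (0.996 to 1.29), on 445 and 534 fragments. The second transcript, NM_009896, had 20.6 and 26.0 RPKM and a ratio of 1.26 (1.10 to 1.45). The recovered length of 1339 nt is 0.481 of the GENCODE length, since it was held to the RefSeq gene span. A longer true length would mean more fragments and narrower intervals.

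Socs3 inhibits receptors that use gp130, the product of Il6st, and was the inhibitor over 1.5-fold lower, though its interval overlapped that of Cish. It stood at 6.29 RPKM in WT thymus and 3.65 RPKM in Tg thymus (NM_007707, chromosome 11, 117966079 to 117970336). The ratio was 0.580 (0.471 to 0.712) on 249 and 153 fragments, a 1.73-fold lower level whose interval also held folds under 1.5, and 6.48% of measured genes had a ratio as low or lower. Socs1 exceeded Socs3 by 3.64 times in WT thymus and 7.10 times in Tg thymus, and Stat3, which induces Socs3, exceeded it by 2.05 and 4.17 times. Il6st stood at 46.5 and 48.4 RPKM, a ratio of 1.04, and the IL-6 receptor chain Il6ra was over 1.5-fold lower, at 6.96 and 2.47 RPKM (ratio 0.354, 0.287 to 0.436).

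Cish, a target of STAT5, was the least abundant of the 9 genes. It stood at 3.28 RPKM in WT thymus and 2.43 RPKM in Tg thymus (NM_009895, chromosome 9, 107296659 to 107302784). The ratio of 0.742 rests on only 103 and 81 fragments, and its interval reached 1 (0.547 to 1.002), so a difference was not resolved at this depth. Stat5b exceeded Cish by 12.6 times in WT thymus and 19.9 times in Tg thymus. Socs3 had a ratio below 1 beside a Stat3 ratio of 1.18, and Cish one of 0.742, within counting error of 1, beside a Stat5b ratio of 1.17.

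The start regions of these inhibitors hold the letters that STAT dimers and interferon factors are known to bind. In RefSeq promoters of GRCm38.p6, which run from 250 bases before to 50 after a start site, the STAT motif TTCNNNGAA was searched. It reads the same on both strands, and 8.30% of 32851 promoters hold it. Of the 9 genes, Cish held 2 matches (2 or more occur in 0.457% of promoters) and Socs3 held 1. The motif of interferon factors, GAAA followed after any 2 bases by a further GAAA, was searched on both strands and found in 3.44% of promoters. Socs1 held 2 matches, which overlap, and Stat2 and 1 of the Stat4 promoters held 1 each. The windows are printed on the gene's strand with the matches in capitals. They lie at chr9:107296654-107296683 (plus), chr11:117969502-117969530 (minus), chr16:10785597-10785626 (minus), chr10:128270266-128270295 (plus) and chr1:52008133-52008162 (plus), in the order printed. In Stat2 the match reads as the reverse complement.
Cish: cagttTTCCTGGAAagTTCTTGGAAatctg
Socs3: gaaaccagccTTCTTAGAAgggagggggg
Socs1: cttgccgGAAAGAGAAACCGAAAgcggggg
Stat2: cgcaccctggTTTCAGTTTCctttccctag
Stat4: aatgtcttcaGAAAGTGAAAtttagaacgg

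The genes with the STAT motif, Cish and Socs3, had ratios of 0.742 and 0.580, and those with the interferon motif had 1.13 (Socs1), 1.28 (Stat2) and 0.538 (Stat4). The genes that share a motif thus stood on both sides of 1 for the interferon motif. The Stat4 match lies in a promoter window inside the gene, and the window at the start of the gene held 0 matches. Which start the Stat4 message used was not tested. A match is a description of the letters and no evidence of binding in these cells.

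**Figure D4:**
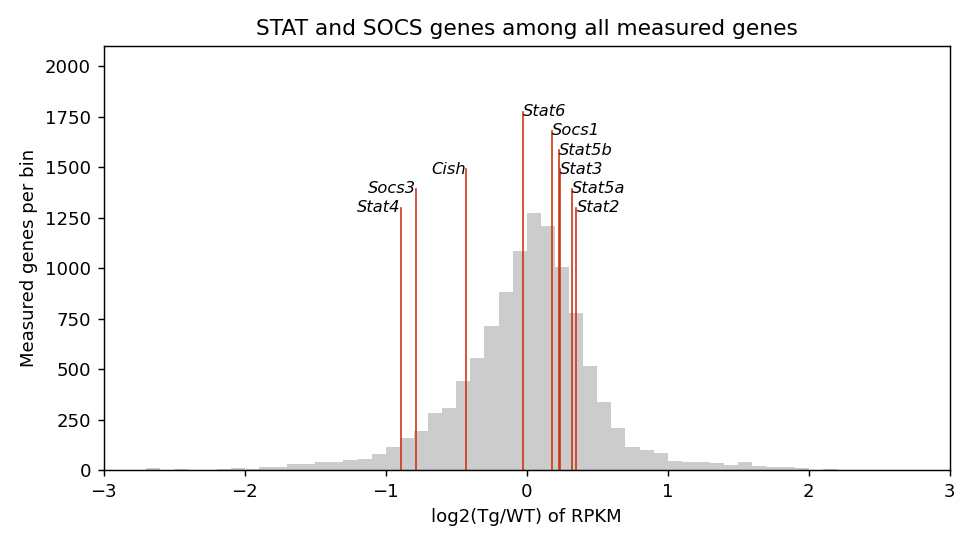
Histogram of log2(Tg/WT) over 11095 measured genes in bins of 0.1 (22 genes lie beyond the plotted range), with a line at each of the 9 genes. Stat4 and Socs3 lie in the lower tail, Cish on the lower shoulder, and the 6 others in the central peak.

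The other measured SOCS genes stayed within 1.5-fold. Socs4 (18.4 and 19.9 RPKM), Socs5 (5.23 and 4.92 RPKM), Socs6 (a ratio of 1.20) and Socs7 (12.2 and 13.2 RPKM) had ratios from 0.940 to 1.20. Socs2, an inhibitor of growth hormone signals, was below the minimum, with 5 and 12 fragments on its leading transcript. Another of its listed transcripts went the other way, with 12 WT and 3 Tg fragments, and the rest had ratios of 0.943 and 0.590. No direction can be read for Socs2. Of all SOCS family genes measured, Socs3 was therefore the only one beyond 1.5-fold. By level Socs1 and Socs4 led, at 22.9 and 18.4 RPKM in the WT library.

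Upstream of the STATs, the 4 JAK kinases were all lower in the Tg library but within 1.5-fold, with a median log2(Tg/WT) of -0.43. Jak1, which pairs with most of these receptors, was the most abundant at 145.9 and 121 RPKM, a ratio of 0.831 (0.808 to 0.854). Jak2 had 25.4 and 17.7 RPKM, a ratio of 0.698 (0.650 to 0.749). Jak3, the partner of the common γ chain, had 11.9 and 8.72 RPKM, and Tyk2, which serves interferon and IL-12 receptors, 7.05 and 5.32 RPKM. Their intervals all lay below 1. Under the rescaling to 1 sum every log2 value rises by 0.12.

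Of 26 receptor chains that feed the STATs, 19 were measured. Of these, 5 passed 1.5-fold downward and 0 upward, beside 11.0% and 7.74% of all measured genes. The median log2(Tg/WT) of the measured chains was -0.19. With both libraries rescaled to 1 sum, 3 passed downward (Il10rb and Il27ra no longer did) and Crlf2 passed upward, and with upper quartile scaling Il4ra made 6 downward. The lower chains were Il7r (51.9 and 21.7 RPKM), Il2rb (27.9 and 10.5 RPKM), Il6ra, Il10rb (10.5 and 6.49 RPKM) and Il27ra (50.9 and 31.3 RPKM). Il7r is also on the list of mature single-positive markers. Il7r and Il2rb are the chains through which IL-7, IL-15 and IL-2 reach STAT5, and their ratios were 0.418 and 0.377. The common γ chain Il2rg, the most abundant receptor chain, had 317 and 278 RPKM, a ratio of 0.877. Ifngr1 (145.9 and 171 RPKM) and Il21r (79.0 and 80.3 RPKM) were not lower. Ligands were hardly seen in whole thymus: of 15 listed, only Il4 and Osm were measured, both over 1.5-fold lower, and Osm had 3.03 and 1.91 RPKM. Il4 passed the minimum only through the WT library (2.28 RPKM, against 0.215 RPKM in the Tg library), so this count says little about ligands. Rescaled to 1 sum, Osm came within 1.5-fold.

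**Figure D5:**
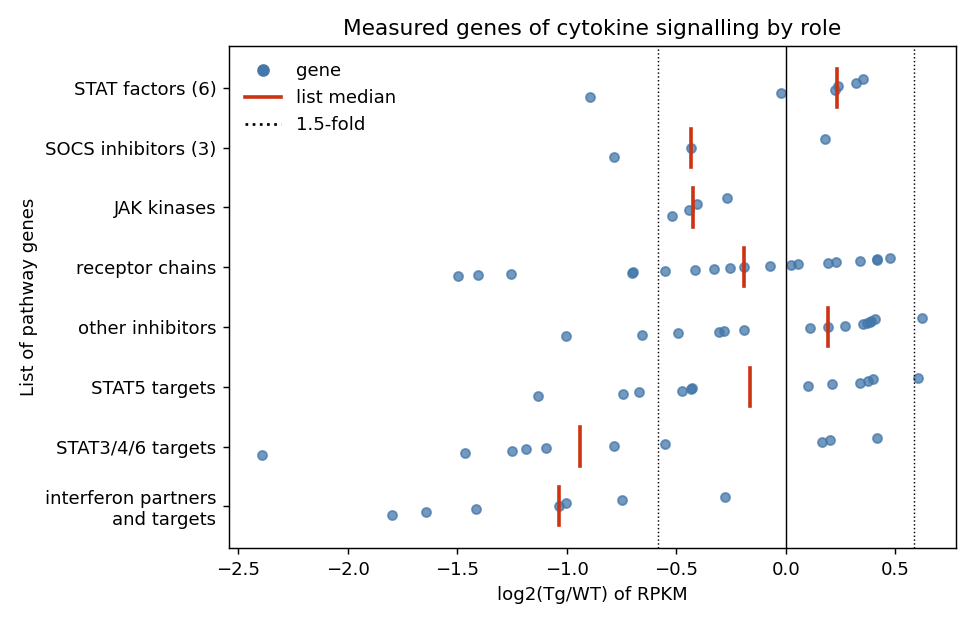
log2(Tg/WT) of RPKM for each measured gene of 8 lists ordered by role, with the list median as a red bar and dotted lines at 1.5-fold. The interferon list and the list of STAT3, STAT4 and STAT6 targets have medians of -1.04 and -0.94, while the STAT factors have 0.23.

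Among 15 other inhibitors of the pathway, all measured, 12 stayed inside 1.5-fold, 2 passed it downward and 1 upward. The shares over all measured genes were 11.0% and 7.74%, near those of this list, whose median log2(Tg/WT) was 0.19. The lower ones were Usp18 and Pias3 (1.63 and 1.03 RPKM), and the higher one was Trim28 (102 and 157 RPKM). Rescaled to 1 sum, Pias3 came within 1.5-fold. Its other listed transcripts were within it without rescaling, at ratios of 0.676 and 0.830. The phosphatases Ptprc, known as CD45, and Ptpn6, known as SHP-1, had 195.5 and 139 RPKM, and 75.4 and 86.2 RPKM. The ubiquitin ligase Cbl had 80.1 and 106 RPKM.

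Known targets of the STATs are described by list, since most of them answer to other signals too. Over all measured genes, 11.0% were over 1.5-fold lower and 7.74% higher. Of 12 measured genes in a list for STAT5, which holds Cish itself, 8 stayed inside 1.5-fold, 3 passed it downward and 1 upward. The median log2(Tg/WT) was -0.16, and Ccnd3 no longer passed with median centring or upper quartile scaling. The lower ones were the survival gene Bcl2 (12.2 and 7.31 RPKM), the cyclin gene Ccnd2 (31.0 and 14.1 RPKM) and Osm. The higher one was Ccnd3 (120 and 182 RPKM), a cyclin gene that cycling thymocytes use. The other listed transcript of Bcl2 had a ratio of 0.696 and those of Ccnd3 had 1.40 and 1.43, all within 1.5-fold. Mcl1 (189.5 and 141 RPKM), Bcl2l1 (97.2 and 104 RPKM) and the kinase gene Pim1 (24.1 and 27.8 RPKM) were within 1.5-fold. Of 10 measured genes in a list for STAT3, STAT4 and STAT6, which holds Socs3 itself, 6 were over 1.5-fold lower and 4 within it (median log2 of -0.94). Besides Socs3 these were Fos (22.5 and 4.28 RPKM), Junb (45.4 and 16.4 RPKM), Bcl3 (4.47 and 1.88 RPKM), Batf (18.0 and 8.41 RPKM) and Il18r1 (7.01 and 3.08 RPKM). Fos and Junb are immediate early genes that many signals and tissue handling induce. Bcl6 (50.4 and 58.0 RPKM) was within 1.5-fold.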

How the data were processed

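Thymus RNA was analysed as 1 WT and 1 Tg library. Per the labels and the methods, the authors enriched messages on oligo(dT) beads, sequenced them on an Illumina HiSeq, mapped reads to mm10 with a program spelled HotHap2 and counted those with a unique position. They deposited RPKM values for 30533 RefSeq transcripts, although the methods describe a fragment-based unit. Version and strand setting: not given in the sources used here.

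The RefSeq table of GRCm38.p6 gave symbols for 30007 transcripts, and GENCODE M21 brought this to 30188. Fragments were recovered from the RPKM values, of which 100% equalled whole reads over a whole length within a relative tolerance of 1e-12. The length taken was the possible one nearest to a GENCODE length of the gene, within the RefSeq gene span. The recovery was tested on simulated data. Reads were divided by 2 to give fragments, and since no value in the files is 0 and read numbers above 1 were nearly all even, a value of 1 read was taken as 0 fragments. Ratio intervals are exact binomial, level intervals exact Poisson, both at 95%. For a 1 kb transcript, 3 fragments are worth 0.207 RPKM (WT) or 0.195 RPKM (Tg).

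The text names all 9 genes, and of each other pathway list the 4 most abundant measured genes and those over 1.5-fold; neighbours, receptors of a named STAT, promoter windows, the second motif and seed sites were added after values were seen. Genes and lists were chosen with earlier results of these data known. Alternatives were pseudocounts of 1 and 0.1, no minimum and a minimum of 5 RPKM, median centring, upper quartile scaling, rescaling to 1 sum, sums or means of transcripts, subtraction of a running median over length (401 genes), and folds of 2 and of 5 to 4. Protein sequences were not used here. Python 3.11.15, numpy 2.4.6, pandas 2.3.3, scipy 1.17.1 and matplotlib 3.10.9 were used.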

Additional observations from a re-analysis of the deposited data

How the results depend on the processing

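Under the 9 of 10 alternatives of value, scaling and filter that kept all 9 genes, Stat4 and Socs3 were over 1.5-fold lower. Ratios ran from 0.515 to 0.585 for Stat4 and from 0.565 to 0.637 for Socs3. Each of these genes has 1 listed transcript, so sums or means of transcripts could not change its ratio, nor could dropping the minimum. With a minimum of 5 RPKM, which removes Socs3 and Cish, 1 gene was lower. With a fold of 2, 0 of the 9 genes were lower, and with a ratio of 5 to 4 Stat2 counted as 1 higher gene and Cish joined the lower ones. The median log2(Tg/WT) ran from 0.13 to 0.30. Stat6 changed sides of 1 with the libraries rescaled to 1 sum (1.07). With single reads in place of fragments, an alternative chosen after seeing the data like the scalings of the lists, the interval of Cish (0.600 to 0.916) and that of Socs1 (1.03 to 1.24) no longer held 1. No paired analysis was possible because there was 1 library per genotype, and no library could be left out. Depth limits Cish and Socs3 most.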
